A study of Mus musculus with 12 samples.

Results

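The 10 genes described here encode the nitric oxide (NO) synthases and proteins directly around them: the synthases Nos1, Nos2 and Nos3, the adaptor Nos1ap, the hydrolases Ddah1 and Ddah2, the caveolins Cav1 and Cav3, and the soluble guanylyl cyclase subunits Gucy1a1 and Gucy1b1. They were chosen by symbol, as the identifiers in the deposited count table that carry these symbols in GENCODE M21, and all 10 were found among 26921 genes. Left ventricles of mice aged 16 weeks gave 6 WT and 6 cmGch1 KO libraries for RNA sequencing. The WT mice were Gch1 flox/flox littermates, and the cmGch1 KO mice carried the same floxed alleles together with α-MHC-Cre, a Cre recombinase whose promoter works in heart muscle cells. Vascular, immune and stromal cells of the ventricle therefore kept Gch1, and no Cre-only group is among these libraries. A library had between 19921398 and 37917806 counts.

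NO synthases make NO from L-arginine and need tetrahydrobiopterin (BH4) as a cofactor. Gch1 encodes GTP cyclohydrolase, the first enzyme of BH4 synthesis, so the deletion removes the cofactor's synthesis in cardiomyocytes and not the synthases themselves. The study reported BH4 in isolated cmGch1 KO cardiomyocytes as reduced but still present, with no significant change in the whole heart. NO binds the haem of soluble guanylyl cyclase, a dimer of the α1 subunit (Gucy1a1) and the β1 subunit (Gucy1b1), which then makes cyclic GMP (cGMP). In the heart, Nos3 is best known from endothelium, Nos1 from the sarcoplasmic reticulum of cardiomyocytes, and Nos2 from cells exposed to inflammatory cytokines. The comparison asks whether transcripts of this machinery differ in hearts whose cardiomyocytes lack Gch1.

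The deletion itself was visible in the RNA. Gch1 fell from 10.7 ± 0.979 to 5.51 ± 0.859 cpm (SD, n = 6 each), with a log2 fold change of -0.96 (SE 0.11, adjusted p = 6.88e-04, edgeR quasi-likelihood test). Cpm are counts scaled to the library's total over the tested genes and the TMM factors of edgeR. The filter that chose the tested genes used the total of all counts. Xist was at 87.1 and 99.6 cpm in cmGch1 KO replicates 2 and 3, which had no counts of 4 Y-linked genes. The other 10 libraries had at most 0.235 cpm of Xist and at least 15.5 cpm of each of the 4 Y-linked genes. By these genes the 2 libraries read as female and the other 10, with all 6 of WT, as male. No label used here gives sex, and by this reading sex was not balanced between the genotypes. Without them 34 genes in all passed the test, against 126 with all libraries, so values without them are given beside several results. As a check of the tissue, 6 cardiomyocyte markers summed to at least 43900 cpm in every library, while 3 atrial markers summed to between 7.66 and 284 cpm in WT and between 45.3 and 188 cpm in cmGch1 KO.

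None of the 10 transcripts passed the test between genotypes. Of the 9 members that reached a cpm over 3 in at least 6 libraries, 0 had an adjusted p under 0.05 (edgeR quasi-likelihood test, Benjamini-Hochberg over 11225 genes), against 1.12% of all tested genes, and 0 passed by the Wald test of DESeq2, which called 373 genes in all. The 126 genes behind the 1.12% became 207 without cmGch1 KO replicate 1, and 72, 73 and 78 without WT replicate 3, WT replicate 5 and cmGch1 KO replicate 3, with 0 members called in each case. One member, Nos1ap, had an unadjusted p under 0.05, which is 11.1% of the 9 and close to the 11.5% of all tested genes. Nos1ap kept an unadjusted p under 0.05 in 11 of 21 alternatives. With library size alone in the edgeR fit its adjusted p was 0.455 (unadjusted p = 0.108), while Ddah1 (unadjusted p = 0.0283, adjusted p = 0.252) and Gucy1b1 (unadjusted p = 0.0437, adjusted p = 0.304) had values higher in cmGch1 KO. The genotypes overlapped in range for all 10 members, and for all but 1.87% of tested genes. Of the 9 tested members, 7 had a higher mean in cmGch1 KO and 2 a lower one, with a median log2 fold change of 0.13 beside -0.01 over all tested genes. Over all tested genes, 5241 of 11225 had a log2 fold change above 0. Nos3 and Cav1, counted as higher, lay at 0.02 and 0.01, and each turned in 5 of 21 alternatives. With library size alone as the scaling, Ddah2 turned and the split was 8 higher to 1 lower, while the median over all tested genes moved to 0.066. The median size of the log2 fold change, ignoring sign, was 0.13 over the members and 0.09 over all tested genes.

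**Figure D1:**
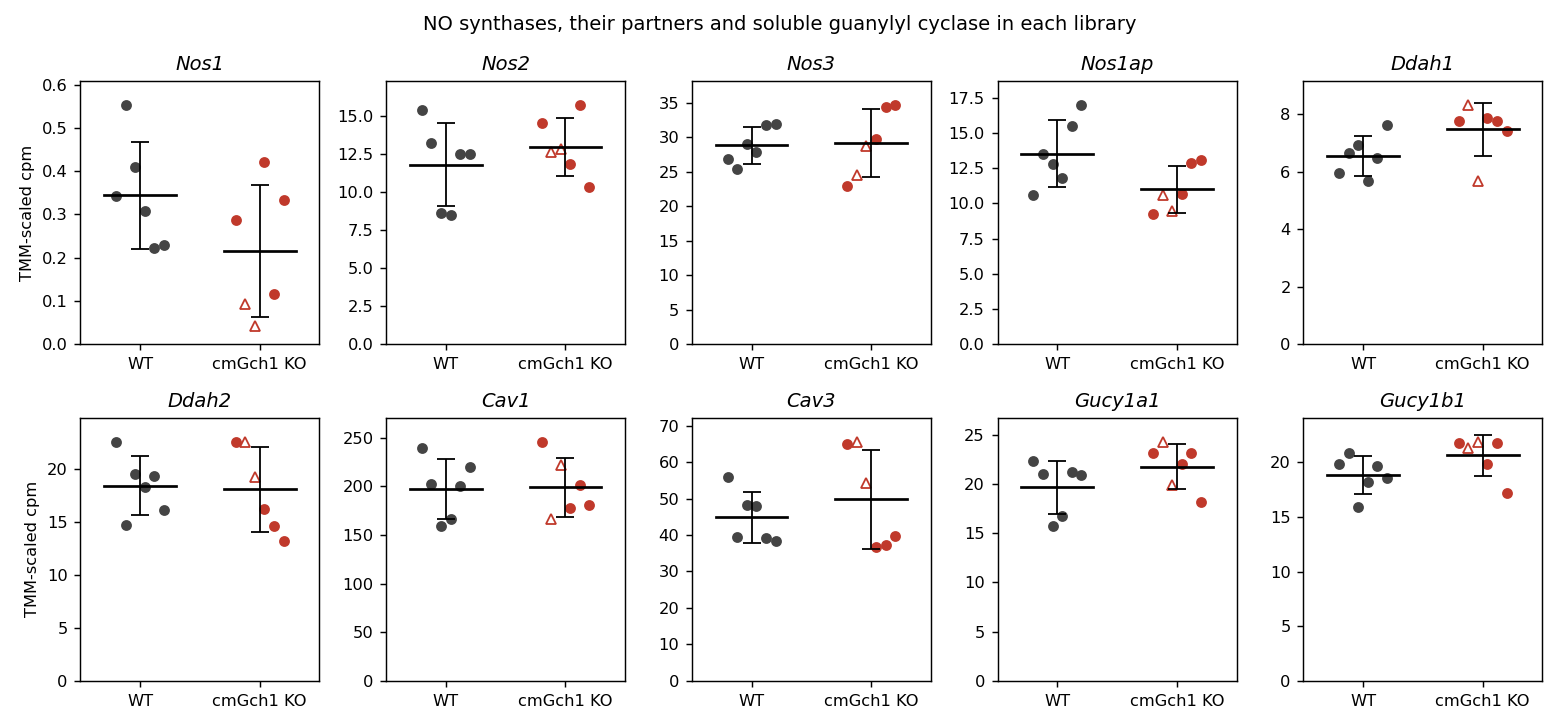
TMM-scaled cpm of the 10 genes in each of 6 WT (grey) and 6 cmGch1 KO (red) libraries, with the mean and SD as bars; each panel has its own linear axis from 0, and open triangles mark the 2 cmGch1 KO libraries with high Xist. The genotypes overlap in every panel, and Nos1ap shows all 6 cmGch1 KO libraries below the WT median of 13.2.

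Among the synthases, Nos3, the endothelial enzyme (chromosome 5, 24364810 to 24384474, plus strand, GRCm38), had the most transcript. WT libraries had 26.9, 25.4, 29.1, 27.9, 31.8 and 32.0 cpm of Nos3 in replicates 1 to 6, and cmGch1 KO libraries 22.9, 24.6, 28.8, 29.7, 34.4 and 34.7 cpm. The cmGch1 KO libraries held both the lowest and the highest values. With means of 28.9 ± 2.66 and 29.2 ± 4.87 cpm (SD, n = 6 each), Nos3 had a log2 fold change of 0.02 (SE 0.11, 95% interval -0.21 to 0.25, adjusted p = 0.981). In linear terms the interval ran from 86.3% to 119% of WT. The sign of this difference turned when WT replicate 1 or 2 or cmGch1 KO replicate 5 or 6 was left out, and no setting gave an adjusted p under 0.758. Without the 2 libraries with high Xist the log2 fold change was 0.08. On the opposite strand, the exons of Nos3 share 294 bases with Atg9b and 1040 bases with Gm15587. Atg9b lay between 0.757 and 2.63 cpm and Gm15587 at no more than 0.826 cpm, both far below Nos3. Whether the counting used strand is not stated in the sources used here. The effect of the shared bases on the counts of Nos3, Atg9b and Gm15587 was not tested.

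Nos2, the cytokine-inducible synthase (chromosome 11, 78920787 to 78960254, plus strand), was well measured in these unchallenged hearts, with 232 to 494 counts in each library. WT replicates 1 to 6 had 15.4, 13.2, 8.63, 8.46, 12.5 and 12.5 cpm of Nos2, and cmGch1 KO replicates 14.5, 12.6, 12.8, 11.8, 15.7 and 10.3 cpm. WT replicates 3 and 4 were the lowest of the 12, and the remaining libraries of both genotypes lay over one another. The log2 fold change was 0.13 (SE 0.15, 95% interval -0.19 to 0.46, adjusted p = 0.833). Markers of macrophages, a cell type known to make Nos2 on activation, had a summed level of 102 to 118 cpm in WT and 119 to 143 cpm in cmGch1 KO (p = 0.00216, the smallest value that the two-sided exact permutation test can give). All 5 of those markers (Adgre1, Cd68, Csf1r, C1qa and Mrc1) had an unadjusted p under 0.05 with higher levels in cmGch1 KO, and 0 of 5 passed the adjusted test. Their part in the level of Nos2 was not tested.

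Nos1, the neuronal synthase that cardiomyocytes also make (chromosome 5, 117781032 to 117958840, plus strand), was near the limit of detection. WT replicates 1 to 6 had 11, 19, 11, 11, 7 and 5 counts of Nos1, and cmGch1 KO replicates had 7, 2, 1, 14, 3 and 12 counts. The means were 0.344 ± 0.124 and 0.216 ± 0.152 cpm (SD, n = 6 each), too low for the filter, and a count of 0 would still allow up to 0.139 cpm in the shallowest library. The 2 libraries with high Xist were the lowest of all, and without them cmGch1 KO had 0.29 ± 0.128 cpm (n = 4). The difference of -0.128 cpm gave p = 0.136 in an exact permutation test, two-sided. Among the alternatives, the test passed the threshold only without cmGch1 KO replicate 4 (difference -0.169 cpm, exact permutation p = 0.0476). Without the 2 libraries with high Xist the difference was -0.054 cpm (exact permutation p = 0.514).

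Per kilobase of exon, the synthases differed far more from one another than between genotypes. Nos3 stood at 6.98 ± 0.643 cpm per kb in WT, Nos2 at 2.67 ± 0.616 and Nos1 at 0.0309 ± 0.0112 (SD, n = 6). Of the summed level per kb of the 3 genes, Nos3 made up 72.2% ± 5.37 in WT and 70.2% ± 5.16 in cmGch1 KO, Nos2 27.4% ± 5.34 and 29.6% ± 5.19, and Nos1 0.325% ± 0.133 and 0.196% ± 0.139. In bulk tissue such a share mixes how many cells make a transcript with how much each makes, and fewer cells of a type cannot be told apart from less RNA per cell.

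Over all 10 genes, the order of levels per kb began with the caveolins. Cav1 had 57.4 ± 8.9 cpm per kb in WT and Cav3 38.7 ± 6.01, and their ranges over the 12 libraries overlapped. Ddah2 followed at 11.6 ± 1.75, Nos3 at 6.98 and Gucy1b1 at 4.8 ± 0.447 cpm per kb, and over the 12 libraries Ddah2 overlapped with Nos3 and Nos3 with Gucy1b1, although their WT ranges did not. Ddah2 was separate from Cav3 above it, and Gucy1b1 from Gucy1a1 below it. Gucy1a1 (2.82 ± 0.386), Nos2 (2.67), Nos1ap (1.87 ± 0.328) and Ddah1 (1.64 ± 0.175 cpm per kb) each overlapped with the next of these, and Nos1 was below all of them. Among all tested genes, Cav1 stood at the 94.0th percentile of level per kb, Nos3 at the 59.5th and Nos1ap at the 18.6th. Cpm per kb divides by the length of all annotated exons, so a gene that uses only part of them reads low.

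**Figure D2:**
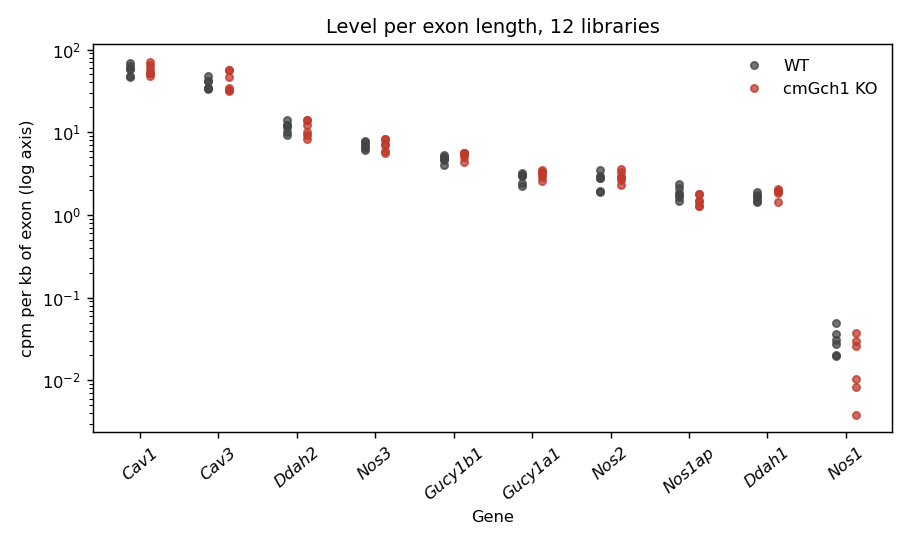
Cpm per kb of exon on a log axis for the 10 genes in order of their WT mean, 6 WT (grey) and 6 cmGch1 KO (red) libraries each. Levels span from Cav1 at 57.4 to Nos1 at 0.0309 cpm per kb in WT, while the genotypes overlap for each gene.

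Nos1ap encodes an adaptor that binds neuronal NO synthase and is known from human genetics of the QT interval (chromosome 1, 170302668 to 170589861, minus strand). WT replicates 1 to 6 had 10.6, 13.5, 12.8, 11.8, 15.5 and 17.0 cpm of Nos1ap, and cmGch1 KO replicates 9.25, 10.6, 9.43, 10.7, 12.9 and 13.1 cpm. All 6 cmGch1 KO libraries lay below the WT median and 3 lay below the lowest WT library, and the ranges still overlapped. From means of 13.5 ± 2.38 and 11.0 ± 1.67 cpm, the log2 fold change was -0.30 (SE 0.13, 95% interval -0.57 to -0.02), with an unadjusted p of 0.036 and an adjusted p of 0.377 in the edgeR fit. An exact permutation test on cpm, two-sided, gave p = 0.0606. The direction held under all 21 alternatives, with log2 fold changes between -0.36 and -0.22 and adjusted p between 0.0857 and 0.887. Without the 2 libraries with high Xist the log2 fold change was -0.23, the unadjusted p 0.132 and the adjusted p 0.887. The summed level of 6 cardiomyocyte markers was 49700 to 53400 cpm in WT and 43900 to 51000 cpm in cmGch1 KO (exact permutation test, two-sided, p = 0.00433). Of the 6, 0 passed an unadjusted p of 0.05. Actc1 had a log2 fold change of 0.10, and Myh6, Tnnt2, Tnni3, Ryr2 and Myl2 had -0.18, -0.11, -0.16, -0.21 and -0.22. Myh6 alone had a mean of 23200 cpm in WT, beside a summed mean of 51900 cpm. The part of this sum in the level of Nos1ap was not tested. Nos1ap shares 171 exon bases with Gm7694 on the same strand, which has no row of its own here.

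The caveolins form the coat of caveolae, where Cav1 of endothelium and Cav3 of muscle bind NO synthases and hold them inactive. Cav1 (chromosome 6, 17306335 to 17341452, plus strand) ranged from 159 to 239 cpm in WT and from 166 to 246 cpm in cmGch1 KO. Its means of 198 ± 30.7 and 199 ± 30.4 cpm gave a log2 fold change of 0.01 (SE 0.12, 95% interval -0.24 to 0.26, adjusted p = 0.99). Cav3 (chromosome 6, 112459505 to 112472872, plus strand) had 55.8, 39.4, 48.1, 48.0, 39.3 and 38.4 cpm in WT replicates 1 to 6 and 65.0, 65.6, 54.4, 36.7, 37.2 and 39.7 cpm in cmGch1 KO replicates. Its cmGch1 KO libraries thus split into 3 above all but 1 of the WT libraries and 3 level with the lowest. The log2 fold change of Cav3 was 0.15 (SE 0.16, 95% interval -0.20 to 0.50, adjusted p = 0.829), and it was -0.01 without the 2 libraries with high Xist. The ratio of Cav3 to Cav1 per kb was 0.69 ± 0.158 in WT and 0.751 ± 0.224 in cmGch1 KO.

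Ddah1 and Ddah2 encode the dimethylarginine dimethylaminohydrolases, the first of which is known to break down asymmetric dimethylarginine (ADMA), an inhibitor of NO synthases. Ddah1 (chromosome 3, 145758675 to 145894277, plus strand) had 5.95, 6.64, 6.92, 5.67, 6.48 and 7.61 cpm in WT replicates 1 to 6 and 7.77, 8.32, 5.66, 7.87, 7.75 and 7.43 cpm in cmGch1 KO replicates. Of the cmGch1 KO libraries, 4 exceeded the highest WT library, while replicate 3 lay at the bottom of all 12. The log2 fold change was 0.19 (SE 0.11, 95% interval -0.04 to 0.42, unadjusted p = 0.0933, adjusted p = 0.547). It was 0.26 (unadjusted p = 0.0197, adjusted p = 0.385) without cmGch1 KO replicate 3 and 0.24 (unadjusted p = 0.0351, adjusted p = 0.65) without both libraries with high Xist. Ddah2 (chromosome 17, 35059035 to 35062095, plus strand) ranged from 14.7 to 22.6 cpm in WT and from 13.2 to 22.6 cpm in cmGch1 KO, a log2 fold change of -0.03 (SE 0.15, 95% interval -0.34 to 0.28, adjusted p = 0.974), and -0.15 without the libraries with high Xist. Per kb, Ddah2 exceeded Ddah1 by a ratio of 7.15 ± 1.58 in WT and 6.15 ± 1.64 in cmGch1 KO.

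Gucy1a1 and Gucy1b1 lie next to each other on the minus strand of chromosome 3, at 82092427 to 82145789 and 82032006 to 82074689, with 17737 bases between them. Gucy1a1 had 22.3, 21.0, 15.7, 16.8, 21.2 and 20.9 cpm in WT replicates 1 to 6 and 23.1, 24.3, 19.9, 22.0, 23.1 and 18.2 cpm in cmGch1 KO replicates. Gucy1b1 had 19.9, 20.9, 15.9, 18.2, 19.7 and 18.6 cpm in WT and 21.8, 21.3, 21.9, 19.9, 21.8 and 17.2 cpm in cmGch1 KO. For both subunits WT replicate 3 was the lowest WT library and cmGch1 KO replicate 6 the lowest cmGch1 KO library. The log2 fold changes were 0.15 (SE 0.10, 95% interval -0.07 to 0.37, adjusted p = 0.67) for Gucy1a1 and 0.13 (SE 0.08, 95% interval -0.05 to 0.31, adjusted p = 0.634) for Gucy1b1. The ratio of α1 to β1 transcript per kb, 0.586 ± 0.0452 in WT and 0.595 ± 0.0437 in cmGch1 KO, had a smaller spread relative to its mean than the ratios of Nos1 to Nos3, Cav3 to Cav1 and Ddah2 to Ddah1. Smooth muscle is a main site of this enzyme, and 4 smooth muscle markers summed to 200 to 263 cpm in WT and 235 to 348 cpm in cmGch1 KO (exact permutation test, two-sided, p = 0.0195). Of these markers Acta2 alone was called higher (log2 fold change 0.66, adjusted p = 0.00672, edgeR quasi-likelihood test), and Myh11, Tagln and Cnn1 had values of -0.24, -0.40 and -0.21. Their part in the levels of the subunits was not tested.

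Because both subunit genes varied together, the sequences before their start sites are shown, taken from RefSeq on GRCm38 and read 5′ to 3′ on the minus strand, up to the base before the more upstream of the RefSeq and GENCODE starts. Both strands were searched for the CCAAT box, the TATA box (TATAAA) and the GC box (GGGCGG). Matches, which do not overlap, are in capitals, and a reverse match of the first appears as ATTGG.
Gucy1b1, chr3:82074712-82074961: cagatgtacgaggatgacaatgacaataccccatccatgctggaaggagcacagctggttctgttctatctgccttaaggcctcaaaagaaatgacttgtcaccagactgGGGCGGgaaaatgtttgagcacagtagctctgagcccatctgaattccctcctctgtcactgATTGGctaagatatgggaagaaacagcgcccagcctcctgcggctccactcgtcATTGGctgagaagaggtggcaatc
Gucy1a1, chr3:82145790-82145900: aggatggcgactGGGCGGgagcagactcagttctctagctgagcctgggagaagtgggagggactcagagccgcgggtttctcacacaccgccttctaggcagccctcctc
GGGCGG occurred once in each stretch. Of 32851 RefSeq promoters, 32.7% hold it in the 250 bases before the RefSeq start, the window printed for Gucy1b1. In the 111 of those bases farthest from the RefSeq start, the part printed for Gucy1a1, 11.7% hold it. CCAAT occurred 2 times before Gucy1b1, both in reverse, and 33.8% of promoters hold it in 250 bases. The TATA box was in neither stretch, and the CCAAT box was not in the shorter one before Gucy1a1. These matches describe letters and no binding.

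Over the 12 libraries, Gucy1a1 and Gucy1b1 had a Pearson r of 0.84 in log2 cpm (permutation p = 0.001, adjusted p = 0.006 over 6 relations). Spearman's rho was 0.66 (permutation p = 0.0225, adjusted p = 0.135), and r was 0.68 without WT replicates 3 and 4. Within genotypes r was 0.86 in WT (exact permutation p = 0.0125) and 0.73 in cmGch1 KO (exact permutation p = 0.0778). The other 5 relations did not pass the test, with permutation p from 0.0833 to 0.552 for r and from 0.0942 to 0.515 for rho, before adjustment. Nos3 with the summed endothelial markers had r = 0.52 and rho = 0.51 (adjusted permutation p = 0.25 and 0.283). Cav1 with the same markers had r = 0.34 and rho = 0.40, and Nos3 with Cav1, its endothelial partner, r = -0.19 and rho = -0.22. Nos1 with Nos1ap had r = 0.26 and rho = 0.21, and Gucy1b1 with summed pericyte markers r = 0.21 and rho = 0.22. The endothelial sum itself, 855 to 1040 cpm in WT and 920 to 1070 cpm in cmGch1 KO, did not pass the test between genotypes (exact permutation p = 0.805), nor did the pericyte sum (p = 0.333, same exact test).

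Of all 36 pairs of the 9 tested members, taken after centring each genotype on its mean, 7 had an adjusted permutation p of r under 0.05 (100000 resamples within genotypes, Benjamini-Hochberg over the 36), and 5 of these 7 also passed by Spearman's rho. This family of pairs was chosen after the values had been seen. The share of all pairs of tested genes with r values this large was not computed. The count of 7 therefore does not show a link particular to these genes. Nos2, the inducible synthase, followed the cyclase subunits and Cav1 more closely than it followed the other synthase: r was 0.79 with Gucy1b1 (adjusted p = 0.0286), 0.88 with Gucy1a1 (adjusted p = 0.0286) and 0.79 with Cav1 (adjusted p = 0.0307), and -0.17 with Nos3 (adjusted p = 0.77); the differences between these r values were not tested. By rank, rho was 0.79 for Nos2 with Gucy1b1 (adjusted p = 0.0428), 0.71 with Gucy1a1 (adjusted p = 0.0809) and 0.77 with Cav1 (adjusted p = 0.0428). Without WT replicates 3 and 4, where Nos2 was farthest from its median, r was 0.78, 0.78 and 0.66. Gucy1a1 with Gucy1b1 had r = 0.80 after centring (adjusted p = 0.0307) and rho = 0.59 (adjusted p = 0.194), and r was 0.45 without WT replicate 3 and cmGch1 KO replicate 6, so part of that relation rested on these 2 libraries.

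**Figure D3:**
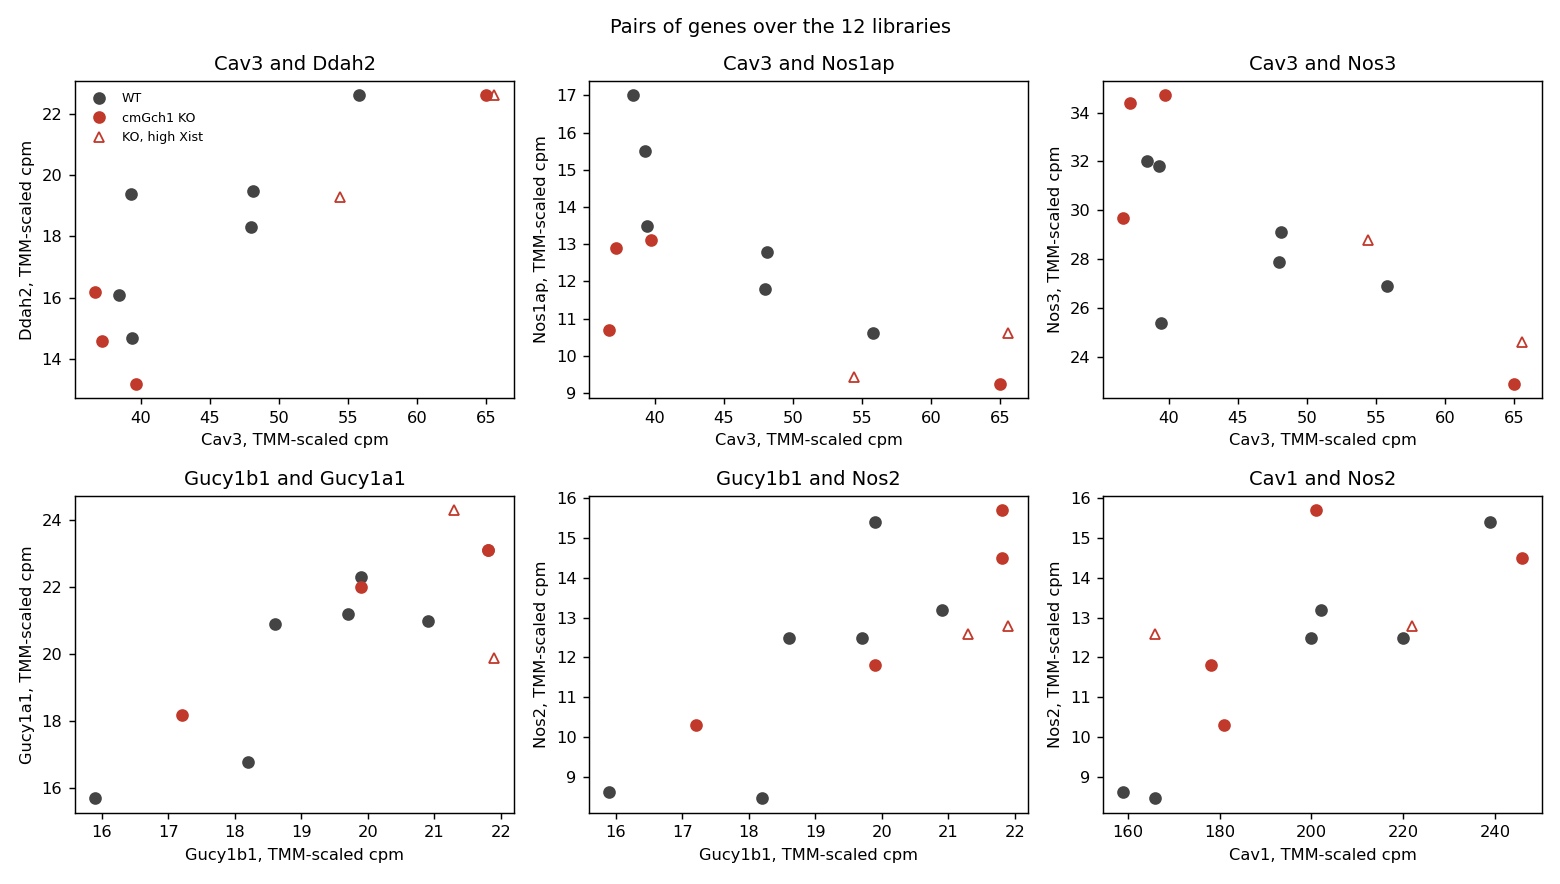
TMM-scaled cpm of 1 gene against another in the 12 libraries, WT in grey, cmGch1 KO in red, open triangles for the 2 cmGch1 KO libraries with high Xist; axes do not start at 0. In the upper row the libraries fall into those with Cav3 at 36.7 to 39.7 cpm and those at 48.0 to 65.6 cpm, and in the lower row Gucy1a1 and Nos2 climb with Gucy1b1, and Nos2 with Cav1.

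Nos3, Nos1ap, Cav3 and Ddah2 followed a different pattern, one shared with much of the transcriptome. The first principal component of the genotype-centred log2 cpm held 37.9% of the variance, and its scores left a gap between 6 libraries above 0 (WT replicates 1, 3 and 4, cmGch1 KO replicates 1, 2 and 3) and 6 below 0. Cav3 (r = 0.93) and Ddah2 (r = 0.87) were high where the score was high, and Nos1ap (r = -0.89) and Nos3 (r = -0.78) were low there, while Nos2 (0.00), Gucy1a1 (0.05), Cav1 (0.12) and Gucy1b1 (0.19) showed little relation to it. These r values are descriptions over 12 libraries, with no test. Across 11190 tested genes the correlation with this component fell with exon length (Spearman rho -0.60) and had little relation to GC content (0.07); genes are not independent replicates. Cav3 and Ddah2 have 1.16 and 1.59 kb of exon, Nos3 4.13 kb and Nos1ap 7.25 kb, beside a median of 4.57 kb over those genes. The part of transcript length in these values was not tested.

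**Figure D4:**
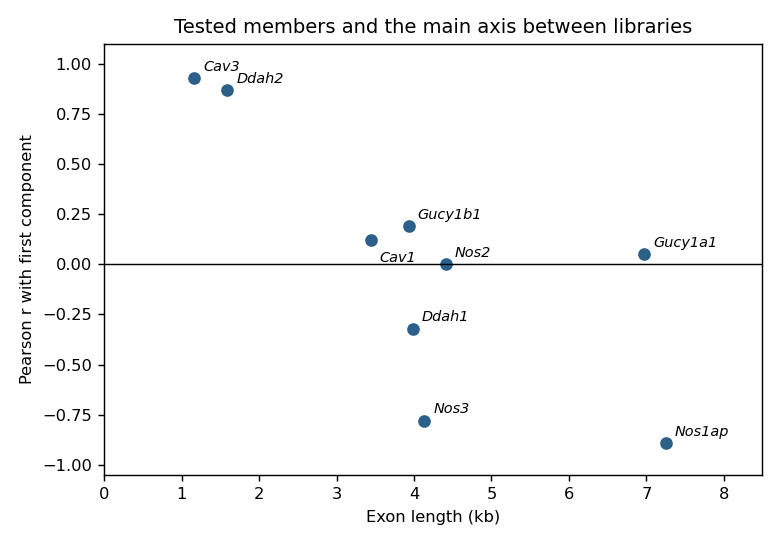
Pearson r between each of the 9 tested genes and the first principal component of the 12 genotype-centred libraries, against exon length in kb. Cav3 and Ddah2, the shortest, sit at 0.93 and 0.87, Nos1ap, the longest, at -0.89, and Gucy1a1 at 0.05 with 6.97 kb.

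Both libraries with high Xist were above 0. The 3 pairs not yet given of the 7 were Ddah2 with Cav3, Nos1ap with Cav3 and Nos3 with Nos1ap, and because the libraries fell into these sets, their r is given within each. Above a score of 0 the r of Cav3 was 0.97 with Ddah2, -0.13 with Nos1ap and -0.91 with Nos3, and below 0 it was 0.22, 0.22 and -0.37. Nos3 with Nos1ap had r = 0.09 above 0 and 0.76 below. These values differed much between the sets, although the difference was not tested. The sets were cut on a score that follows these genes, which narrows their range within a set. Such a split can change r by itself, so no conclusion is drawn from the difference. The r of Nos2 was 0.78 and 0.91 with Gucy1b1, 0.87 and 0.89 with Gucy1a1, and 0.84 and 0.74 with Cav1, above and below 0 respectively. Nos1ap was lower in cmGch1 KO in both sets: 9.74 ± 0.71 against 11.7 ± 1.12 cpm above 0, and 12.2 ± 1.33 against 15.4 ± 1.74 cpm below 0 (SD, n = 3 each). Cav3 was 61.7 ± 6.3 in cmGch1 KO against 50.6 ± 4.46 cpm in WT above 0, and 37.9 ± 1.59 against 39.0 ± 0.524 cpm below 0 (SD, n = 3 each). The sets divide the same libraries by a component of the same values, so they are no independent check of the overall differences. With 3 libraries a side an exact test cannot go below p = 0.10, so these are given as values.

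Cav3 and Ddah2, which lie on different chromosomes, are shown with the same search of the 250 bases before their shared RefSeq and GENCODE starts, on the plus strand, since they had the closest match among these 4 genes.
Cav3, chr6:112459255-112459504: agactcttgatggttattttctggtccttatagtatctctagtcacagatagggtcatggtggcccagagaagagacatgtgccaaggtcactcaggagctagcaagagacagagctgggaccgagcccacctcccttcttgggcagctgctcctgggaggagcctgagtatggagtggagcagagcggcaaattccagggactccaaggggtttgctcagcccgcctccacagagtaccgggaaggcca
Ddah2, chr17:35058785-35059034: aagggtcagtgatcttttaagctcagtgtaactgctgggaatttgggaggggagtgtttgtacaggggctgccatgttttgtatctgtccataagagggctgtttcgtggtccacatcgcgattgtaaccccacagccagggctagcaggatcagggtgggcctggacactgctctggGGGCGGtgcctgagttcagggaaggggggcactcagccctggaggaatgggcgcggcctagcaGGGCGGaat
GGGCGG occurred 2 times before Ddah2, and none of the 3 motifs was found before Cav3, so the pair shared none of these motifs.

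The genes whose genotype-centred log2 cpm was most like that of 3 members, over 12 libraries and all tested genes, were in none of the pathway lists. For Nos3 they were Zfp449 (r = 0.96), Npepps (0.939) and Crebzf (0.939), with Nos1ap at rank 690 (r = 0.743). For Gucy1b1 they were Dact1 (0.944), Stard5 (0.903) and Rin2 (0.901), with Nos2 at rank 41 (r = 0.79) and Gucy1a1 at rank 33 (r = 0.798). For Cav3 they were Eva1b (0.979), Mesd (0.974) and Gm23935 (0.974), which is annotated as a microRNA gene, with Ddah2 at rank 237 (r = 0.888). Counted from the highest r, Nos1ap was at rank 9818 for Cav3 (r = -0.755), with further genes more negative still.

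Further genes of the pathway did not pass the adjusted test either. In 8 lists covering NO synthases, their partners, arginine supply, both kinds of guanylyl cyclase, protein kinase G and its substrates, phosphodiesterases and the removal of NO, 55 genes were named, 53 had a row and 44 were tested. Of these 44, 0 passed it in edgeR, beside 1.12% of all tested genes, and 0 in DESeq2, beside 3.32%. At an unadjusted p under 0.05 in edgeR, 2 were higher and 2 lower (9.09%, beside 11.5% of all genes). That split depended on the setting: it was 6 higher and 0 lower with library size alone, 1 higher and 5 lower with no filter, and 3 higher and 0 lower without the libraries with high Xist. The median log2 fold change over the 44 was 0.02. Asl, the argininosuccinate lyase that regenerates arginine, had the lowest p of the 44: it ranged from 4.31 to 5.89 cpm in WT and from 5.13 to 6.76 cpm in cmGch1 KO, a log2 fold change of 0.31 (SE 0.10, unadjusted p = 0.00877, adjusted p = 0.207). Cavin1, which builds caveolae together with the caveolins, ranged from 256 to 325 cpm in WT and from 298 to 379 cpm in cmGch1 KO (log2 fold change 0.18, SE 0.08, adjusted p = 0.393). Pde5a, the cGMP-specific phosphodiesterase inhibited by sildenafil, ranged from 3.72 to 5.88 cpm in WT and from 3.27 to 4.58 cpm in cmGch1 KO (log2 fold change -0.29, SE 0.13, adjusted p = 0.402).

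By list, the 16 partners and inhibitors of the synthases had 9 values above 0 and 7 below, from -0.30 for Nos1ap to 0.18 for Cavin1. The 6 tested genes of arginine supply and ADMA had a median log2 fold change of 0.10, and 4 of the 6 were above 0. The 5 phosphodiesterases had 4 values above 0 and Pde5a below. Protein kinase G and its substrates had 3 above 0 and 3 below. Of the 5 genes for the removal of NO and S-nitrosothiols 4 were below 0, down to -0.43 for the haemoglobin gene Hba-a1 (SE 0.22, adjusted p = 0.497). Both particulate guanylyl cyclases, the natriuretic peptide receptors Npr1 (-0.12) and Npr2 (-0.03), had values below 0, and both tested subunits of the soluble enzyme had values above 0. No tested gene of any list had genotypes that did not overlap, beside 1.87% of all tested genes.

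**Figure D5:**
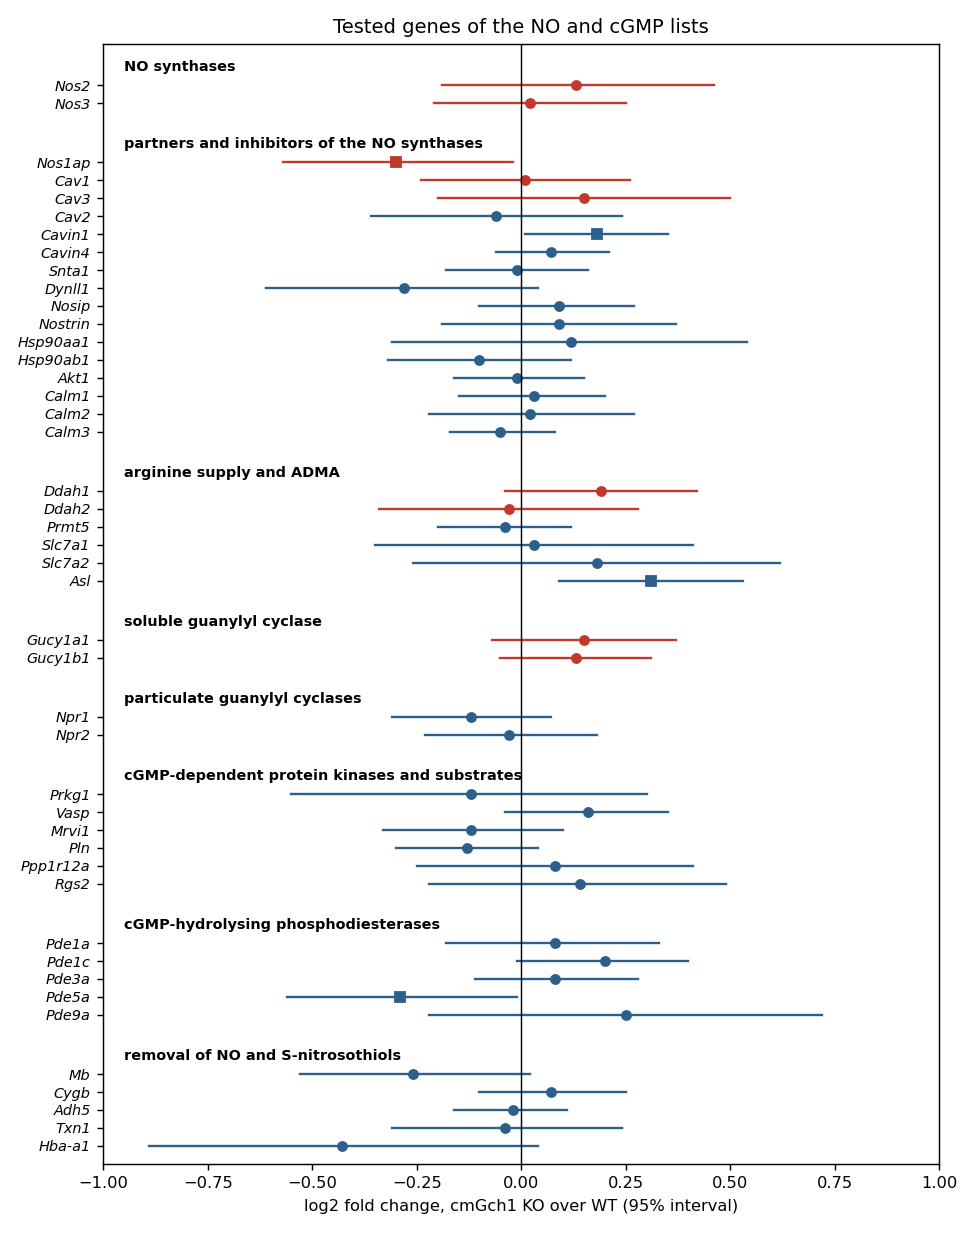
Log2 fold change of cmGch1 KO over WT with its 95% interval for the 44 tested genes of the 8 lists; members are red, other genes blue, and squares mark an unadjusted p under 0.05. The 4 squares are Nos1ap, Cavin1, Asl and Pde5a, and the intervals of the other 40 genes include 0.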

How the data were processed

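RNA-seq libraries of left ventricle (6 WT, 6 cmGch1 KO) were grouped by the genotype label. The authors made stranded dUTP paired-end libraries, used HISAT2, Picard and featureCounts, and deposited raw counts per Ensembl gene; the processing notes name GRCm38, and the annotation, the strand setting of the counting and tool versions are not given in the sources used here. The authors also deposited log2 normalized values, made by a tool not given in the sources used here, which served only as an alternative. Of 26921 identifiers, 26582 (98.7%) matched GENCODE M21.

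Counts were fitted with edgeR 4.0.16 in R 4.3.3 (TMM, cpm over 3 in at least 6 libraries, quasi-likelihood test on genotype, Benjamini-Hochberg over 11225 genes, FDR 0.05). Exact permutation tests enumerated every assignment of 6 libraries to each genotype, and the smallest p they can give is 0.00216. The study's methods take a single animal as the experimental unit. Log2 cpm used a prior count of 2. Depth was 19921398 to 37917806 counts per library, and limits for a count of 0 assume 3 counts. Without molecular identifiers they cover only counting error.

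Alternatives were size factors and the Wald test of DESeq2 1.42.0, library size alone, no filter, filterByExpr, a replicate block, a sex-linked covariate, no libraries with high Xist, limma 3.58.1 on the deposited log2 values, and each library left out. The fit was tested on simulated data. The 36 pairs of members and the first principal component (genotype-centred log2 cpm, unscaled) were added after seeing the data. The text names the 10 members, pathway genes with an unadjusted p under 0.05, the 3 genes most correlated with Nos3, Gucy1b1 and Cav3, overlapping neighbours, and Gch1, Xist and 4 Y-linked genes as checks; Npr1, Npr2 and Hba-a1 were named after their values were seen. Members and lists were chosen with earlier results of these data known. Promoter sequences came from RefSeq on GRCm38, which held 8 of the 10 members; Prmt1 and Pde2a of the lists were not analysed here. Same-numbered libraries of the 2 genotypes were not paired by any label.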

Additional observations from a re-analysis of the deposited data

Results flagged for a closer look

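Of 50 groups of 6 libraries examined, 3 (6.0%) held a library far from the other 5 of its genotype by Dixon's test; chance alone flags about 5.0% of groups. Ddah1 was at 5.66 cpm in cmGch1 KO replicate 3, against 7.43 to 8.32 cpm in the other cmGch1 KO libraries. The ratio of Gucy1a1 to Gucy1b1 per kb was 0.513 in the same library, against 0.596 to 0.642. The summed level of blood markers was 590 cpm in cmGch1 KO replicate 1, against 241 to 345 cpm. Replicate 3 is also 1 of the 2 libraries with high Xist. Without both of these libraries Ddah1 had a mean of 7.71 ± 0.192 cpm in cmGch1 KO (SD, n = 4), and its log2 fold change was 0.24 with an unadjusted p of 0.0351 and an adjusted p of 0.65 in the edgeR fit.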

How the results depend on the processing

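The number of members called stayed at 0 under all 21 alternatives, as did the number of pathway genes called. Of 189 fold changes of members under alternatives, 174 kept their direction and none passed the threshold; the 15 that turned belonged to Nos3 (5), Ddah2 (4), Cav1 (5) and Cav3 (1), and the cause was not tested. Nos3 turned to -0.0020 with the deposited normalized values and ran from -0.04 to 0.08 as single libraries were left out, Ddah2 turned to 0.05 with library size alone and ran from -0.11 to 0.04, Cav1 turned to -0.01 with no filter and ran from -0.06 to 0.07, and Cav3 turned to -0.01 without both libraries with high Xist. Library size alone moved the median of all genes from -0.0095 to 0.066. The Nos1 difference ran from -0.169 to -0.0861 cpm as single libraries were left out, and was -0.054 cpm without both libraries with high Xist. The correlation of Gucy1a1 with Gucy1b1 was 0.73 in cmGch1 KO alone. Nos3 with the endothelial markers was 0.85 in cmGch1 KO alone (exact permutation p = 0.0472), and Cav1 with them was -0.16 there. Nos1 with Nos1ap was -0.47 in WT alone and -0.25 without both libraries with high Xist. As single libraries were left out, r ran from -0.38 to 0.11 for Nos3 with Cav1, -0.01 to 0.34 for Nos1 with Nos1ap, 0.40 to 0.68 for Nos3 with the endothelial markers, 0.17 to 0.54 for Cav1 with them, -0.01 to 0.36 for Gucy1b1 with the pericyte markers, and 0.72 to 0.91 for Gucy1a1 with Gucy1b1. With the replicate block in the edgeR fit, 0 members were called and Nos1ap had an unadjusted p of 0.00254 and an adjusted p of 0.0857. Same-numbered libraries had correlations of their deviations between -0.128 and 0.676, and not every library correlated best with its own number. Such correlations cannot show whether the libraries were paired, and no label pairs them. The block raised genes called from 50 lower and 76 higher to 76 and 112.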
